A study of Homo sapiens with 6 samples.

Results

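Human dermal fibroblasts with wild-type MyoD were compared with untreated cells of the same line, over all genes and beyond the muscle genes. The samples were taken by their group labels, 2 cultures with WT-MyoD and 2 untreated cultures among 6 in the series. Of 23526 genes with a symbol, 15282 had enough counts to be tested. MyoD is the basic helix-loop-helix factor of the skeletal muscle lineage. It binds E-boxes together with E proteins, can bind them in closed chromatin, and can turn fibroblasts into muscle-like cells. Dermal fibroblasts are the matrix-secreting cells of the skin.

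The WT-MyoD cells carried a Tet-ON lentivirus for mouse MyoD with a linked red fluorescent marker, dsRed-Express2. They were selected with 1 µg/mL puromycin, grown to confluence, given 3 µg/mL doxycycline and harvested at day 10. For the untreated cells, transduction, selection, doxycycline and the day of harvest are not given in the labels, so effects of the vector, the drugs and time in culture cannot be told apart from those of MyoD. The series also holds 2 cultures with VP64-MyoD, the same factor fused to the viral VP64 activation domain, which entered the same fit and whose levels are given for some genes. All cultures come from 1 line and are called biological duplicates by the submitters, so a p-value here rests on culture-to-culture spread within this line. In bulk RNA, a change in the number of cells that make a transcript and a change in its level per cell cannot be told apart.

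Reads of the mouse transgene numbered 254 and 46 counts in the untreated libraries, whereas the WT-MyoD libraries held 42900 and 41736. Counts on the human MYOD1 gene were at 0 in both untreated libraries and amounted to 0.399% of the transgene counts with WT-MyoD. Library totals lay between 40997586 and 53804224 counts. All 14 fibroblast markers stayed above 1 CPM (counts per 1000000 counts, scaled between libraries) in each of the 4 libraries. Their summed level was 47499 and 49966 CPM in untreated cells against 32987 and 37478 CPM with WT-MyoD. The 10 keratinocyte markers summed to at most 9.98 CPM, the 6 melanocyte markers to at most 1.37 CPM and the 6 adipocyte markers to at most 0.869 CPM. The 5 Schwann cell markers summed to 42.9 and 45.5 CPM untreated and to 73.0 and 75.3 CPM with WT-MyoD, with S100B at 0 throughout. The share of ribosomal RNA was 0.663% and 0.803% untreated and 1.26% and 1.80% with WT-MyoD. The part of ribosomal RNA in the results below was not tested.

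A gene was called where its Benjamini-Hochberg adjusted p in edgeR's quasi-likelihood test lay under 0.05. With WT-MyoD, 3968 genes were called higher, 26.0% of those tested, and 3446 lower, 22.5%. The calls of each gene list below stand against these shares. A change over 4-fold was reached by 996 of the higher genes, 6.52% of all tested, and by 157 of the lower genes, 1.03%. Genes of the muscle list were a small part of this. The muscle list of 218 tested genes had 163 higher and 21 lower, and leaving it out kept 878 and 154 of the genes changed over 4-fold. The list was written by hand and is not complete, so the genes kept can still include muscle genes.

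Of the 996 genes over 4-fold higher, 408 had stood at or under 0.1 CPM in untreated cells and 300 between 0.1 and 1 CPM. A further 230 had stood between 1 and 10 CPM, 57 between 10 and 100 CPM and 1 above 100 CPM. A gene at or under 0.1 CPM untreated passed the filter on low counts mostly through a group in which it was higher, and of the 636 such genes tested, 417 were called higher and 1 lower, so the filter bears on this direction. The median level of the 996 genes went from 0.190 to 3.77 CPM. As a set they took 0.245% and 0.235% of the untreated counts and 2.72% and 2.70% of the counts with WT-MyoD. The large falls came from genes across the range of levels, with 26 of the 157 above 100 CPM in untreated cells. Their median level went from 7.02 to 1.05 CPM, and their share of the counts from 1.31% and 1.29% to 0.256% and 0.250%.

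**Figure D1:**
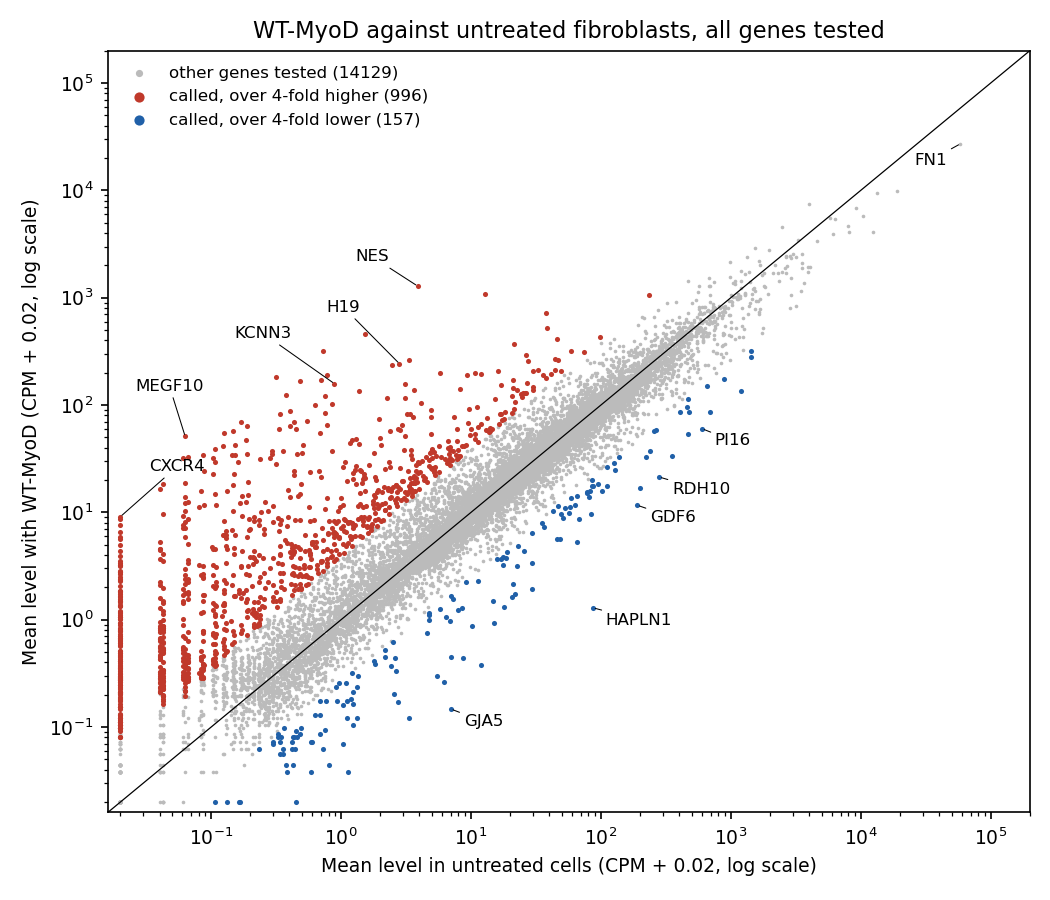
Mean level of each tested gene in untreated cells (x axis) and with WT-MyoD (y axis), 2 libraries each, in CPM plus 0.02 on log axes; the line marks equal levels. Genes called and over 4-fold higher (996, red) reach down to untreated levels of 0 at the left, and those over 4-fold lower (157, blue) spread along the axis.

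Promoters of the genes that rose were read for the E-box letters that MyoD is known to favour. The 2 motifs were CAGCTG, which reads the same on both strands, and CACCTG, searched on both strands, where its reverse reads CAGGTG. No E-box was counted under both motifs. RefSeq promoters (GRCh38.p14, 250 bases before to 50 bases after the start) were at hand for 12025 of the 15282 genes tested, of which 17.6% held CAGCTG and 18.3% held CACCTG. Among the 741 genes with a promoter that were called and over 4-fold higher, the shares were 29.3% and 20.5%. Outside the muscle list they were 27.7% and 19.7%, over 654 genes. Among 111 genes called and over 4-fold lower, each motif was found in 14.4%. A match is a description of letters and not a site of binding, and nothing follows from its absence in this window.

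Of the 20 genes with the highest fold changes outside the muscle list, 17 had a promoter in the table. CAGCTG was found in 6 of them, CACCTG in 5, and neither in 8. The 4 promoters with the most matches are shown, 5′ to 3′ on the strand of the gene, with each E-box in capitals.
CELA3A: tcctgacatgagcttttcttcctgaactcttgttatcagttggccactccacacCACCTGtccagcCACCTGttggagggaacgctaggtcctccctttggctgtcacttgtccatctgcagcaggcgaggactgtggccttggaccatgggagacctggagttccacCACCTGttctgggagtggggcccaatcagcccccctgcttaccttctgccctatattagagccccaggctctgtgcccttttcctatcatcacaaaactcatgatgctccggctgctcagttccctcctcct
ENTPD8: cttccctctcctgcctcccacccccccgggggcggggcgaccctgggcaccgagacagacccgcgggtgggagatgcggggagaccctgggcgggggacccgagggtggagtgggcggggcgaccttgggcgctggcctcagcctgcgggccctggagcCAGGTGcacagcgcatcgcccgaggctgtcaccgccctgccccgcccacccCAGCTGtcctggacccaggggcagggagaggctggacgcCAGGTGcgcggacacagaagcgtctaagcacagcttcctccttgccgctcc
FRMPD1: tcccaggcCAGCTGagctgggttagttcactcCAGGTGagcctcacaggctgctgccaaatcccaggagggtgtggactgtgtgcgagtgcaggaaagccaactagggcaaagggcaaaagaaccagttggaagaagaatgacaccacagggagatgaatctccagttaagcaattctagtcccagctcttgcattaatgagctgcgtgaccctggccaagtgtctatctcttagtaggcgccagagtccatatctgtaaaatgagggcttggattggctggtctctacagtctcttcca
LAD1: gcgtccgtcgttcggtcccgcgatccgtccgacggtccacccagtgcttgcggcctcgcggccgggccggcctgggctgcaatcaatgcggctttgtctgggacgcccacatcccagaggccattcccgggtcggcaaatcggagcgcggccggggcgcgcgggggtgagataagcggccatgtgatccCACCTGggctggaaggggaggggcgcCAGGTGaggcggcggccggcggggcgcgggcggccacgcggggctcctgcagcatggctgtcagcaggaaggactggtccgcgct
CELA3A and ENTPD8 each held 3 E-boxes, and FRMPD1 and LAD1 each held 2. The promoter of CXCR4, the gene outside the muscle list with the highest level among those at 0 in untreated cells, held neither motif.

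Outside the muscle list and the Y-linked genes, which were left out, 123 called genes had no count in either untreated library. A fold against such a group is a lower bound, for which 3 read pairs in the 2 libraries together served as the floor. The most abundant of them was CXCR4, the receptor of the chemokine CXCL12 and a guide of migrating blood and muscle precursor cells, at 10.4 and 7.78 CPM with WT-MyoD, at least 141-fold higher. CXCL12 itself stood at 905 and 871 CPM untreated and at 474 and 438 CPM with WT-MyoD, and fell by 0.96 on the log2 scale (SE 0.07). ACKR3, a receptor that scavenges CXCL12, went from 6.78 and 5.62 CPM to 0.284 and 0.196 CPM and fell by 4.64 on the log2 scale (SE 0.27). The ligand and its scavenger thus fell, and the signalling receptor was the member that rose. No overlap of libraries was part of the rule by which CXCR4 and ACKR3 were chosen.

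Several other genes at 0 in untreated cells are known from the cell surface and the cortex beneath it. ST8SIA2, a sialyltransferase that adds polysialic acid to the adhesion molecule NCAM, stood at 7.03 and 5.97 CPM with WT-MyoD, at least 101-fold higher. Its substrate gene NCAM1 rose from 9.65 and 8.78 CPM to 186 and 197 CPM. ADGRL3, an adhesion receptor of the latrophilin family, stood at 4.62 and 5.29 CPM, at least 77.0-fold higher. All libraries with WT-MyoD were above all untreated ones for these 3 genes, which the rule of choice required of ST8SIA2 and ADGRL3. FRMPD1, a FERM and PDZ domain protein, stood at 7.18 and 7.98 CPM, at least 118-fold higher. COBL, an actin nucleator, stood at 5.61 and 6.17 CPM, at least 91.6-fold higher. ELMO1, which with DOCK proteins activates Rac in phagocytosis and migration, reached 2.91 and 2.79 CPM, at least 44.3-fold higher. The engulfment receptor MEGF10 is known from satellite cells and astrocytes. It went from 0.0404 and 0.0457 CPM, 2 read pairs in all, to 47.9 and 54.1 CPM, a ratio of 1178 with a 95% counting interval from 326 to 9733.

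An exchanger and an inhibitor of receptor maturation were among the same genes. SLC24A2, a potassium-dependent sodium and calcium exchanger, had no count untreated and stood at 2.59 and 4.16 CPM, at least 52.5-fold higher. SHISA2, an inhibitor of FGF and Wnt receptor maturation, was likewise at 0 and reached 3.27 and 3.18 CPM, at least 50.1-fold higher.

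Several of the highest folds fell on genes known from unrelated organs, all at low levels. CELA3A, a pancreatic elastase-family protease, stood at 3.16 and 2.40 CPM with WT-MyoD, at least 43.2-fold higher. RGR, an opsin of the retinal pigment epithelium, stood at 2.63 and 1.91 CPM, at least 35.3-fold higher. ENTPD8, an ectonucleotidase known from liver, stood at 2.34 and 2.59 CPM, at least 38.4-fold higher. LAD1, an anchoring protein of epithelial basement membrane, stood at 3.02 and 2.45 CPM, at least 42.5-fold higher. These 4 genes had no count in untreated cells. CYTIP, a regulator of adhesion in leukocytes, stood at 3.41 and 2.84 CPM, at least 48.6-fold higher, and STAB2, a hyaluronan scavenger receptor of sinusoidal endothelium, at 1.74 and 1.91 CPM, at least 28.4-fold higher. Of the defining leukocyte genes, CD3E and MS4A1 had no count in any of the 4 libraries, and PTPRC had 66 and 52 counts untreated against 42 and 46 counts with WT-MyoD. The 9 leukocyte markers summed to 69.5 and 71.4 CPM untreated and to 179 and 184 CPM with WT-MyoD, nearly all from the lysosomal gene CD68. The 8 endothelial markers summed to 27.5 and 26.7 CPM untreated and to 16.2 and 16.0 CPM with WT-MyoD. That sum came mostly from TEK and ERG, which fell, and 2 rarer members rose, CLDN5 from 0 to 0.817 and 0.832 CPM and KDR from 0.0404 and 0 CPM to 0.249 and 0.147 CPM. The call of KDR was lost without either untreated library, without WT-MyoD replicate 1 and in DESeq2 (adjusted p = 0.051, 0.18, 0.15 and 0.059). TAGLN3, a calponin-family protein of neurons, stood at 1.56 and 2.10 CPM, and CA7, a carbonic anhydrase, at 2.20 and 2.50 CPM, at least 28.5-fold and 36.5-fold higher. CCDC141 stood at 2.17 and 2.45 CPM, at least 35.9-fold higher. The zinc finger factor ZBTB7C went from 0 and 0.0457 CPM to 17.3 and 19.8 CPM, which is a ratio of 855 over 1 untreated read pair (95% counting interval 153 to 33826).

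**Figure D2:**
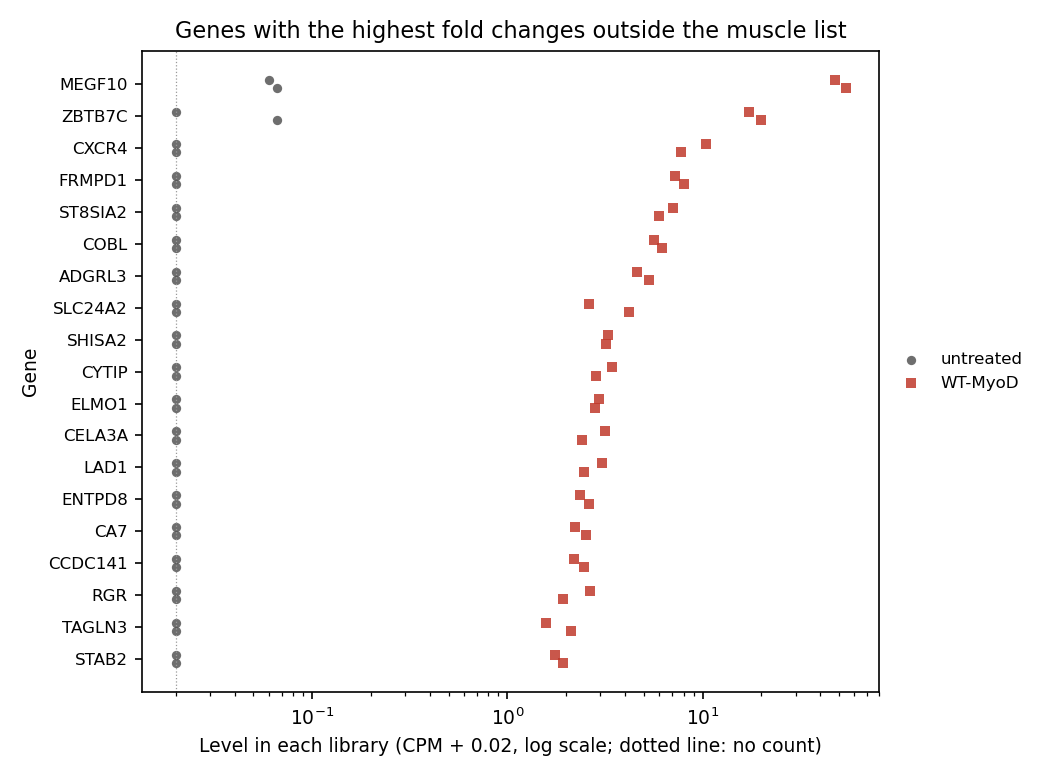
Level in each library (x axis, CPM plus 0.02, log scale) of 19 of the 20 genes with the highest fold changes outside the muscle list, 2 libraries per group; points on the dotted line had no count. For each of the 19 genes both WT-MyoD libraries lie to the right of both untreated ones, which the rule of choice required.

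The lowest fold changes were seen in genes of varied known roles. HAPLN1, the link protein that ties hyaluronan to aggrecan, stood at 90.8 and 83.8 CPM untreated and at 1.31 and 1.22 CPM with WT-MyoD. It fell by 6.09 on the log2 scale (SE 0.12, adjusted p = 1.1e-15). GDF6, a ligand of the bone morphogenetic protein family that acts in joint formation, went from 184 and 199 CPM to 11.3 and 11.9 CPM and fell by 4.04 on the log2 scale (SE 0.08). RDH10, which oxidises retinol on the path to retinoic acid, went from 270 and 294 CPM to 19.6 and 23.0 CPM and fell by 3.73 on the log2 scale (SE 0.08). These were abundant transcripts in untreated cells, and the groups were far apart for each.

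GJA5, a connexin of gap junctions in arteries and atria, went from 7.35 and 6.68 CPM to 0.107 and 0.147 CPM. KCND3, a channel of the transient outward potassium current, went from 11.6 and 12.1 CPM to 0.320 and 0.392 CPM, and KCNK15, of the potassium leak channels, from 15.5 and 14.6 CPM to 0.711 and 1.13 CPM. They fell by 5.80, 5.07 and 4.07 on the log2 scale (SE 0.29, 0.19 and 0.18). NOX4, an NADPH oxidase that makes hydrogen peroxide in fibroblasts, went from 6.10 and 4.80 CPM to 0.0711 and 0.489 CPM. Its log2 fold change was -4.44 (SE 0.36), with -3.48 and -6.20 when WT-MyoD replicate 1 or 2 was left out. CNN1, the calponin of smooth muscle, went from 29.5 and 29.9 CPM to 1.49 and 2.30 CPM, and PLN, the phospholamban of heart and slow muscle, from 1.29 and 1.14 CPM to 0.0711 and 0.0979 CPM. The levels of these 2 genes did not overlap between the groups, which the rule of choice required. The 7 markers of smooth muscle cells and pericytes nevertheless summed to 373 and 352 CPM untreated and to 811 and 975 CPM with WT-MyoD, most of it from NOTCH3. The neuronal adhesion gene NRXN3 went from 23.2 and 20.7 CPM to 1.71 and 1.71 CPM, and the vesicle protein gene SYT12 from 9.24 and 8.05 CPM to 0.497 and 0.343 CPM.

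Only 5 called genes had counts in untreated cells and none with WT-MyoD, and all were low. The stress peptide gene UCN2 was among them at 0.202 and 0.0915 CPM, at least 2.37-fold lower, and the call was lost without untreated replicate 1. The noncoding STEAP1B-AS1 stood at 0.363 and 0.503 CPM, at least 7.01-fold lower, with an adjusted p of 0.0011 in edgeR and 0.057 in DESeq2. It lies antisense to another gene by name, and the libraries do not mark strand, so its reads cannot be told apart from that gene's.

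**Figure D3:**
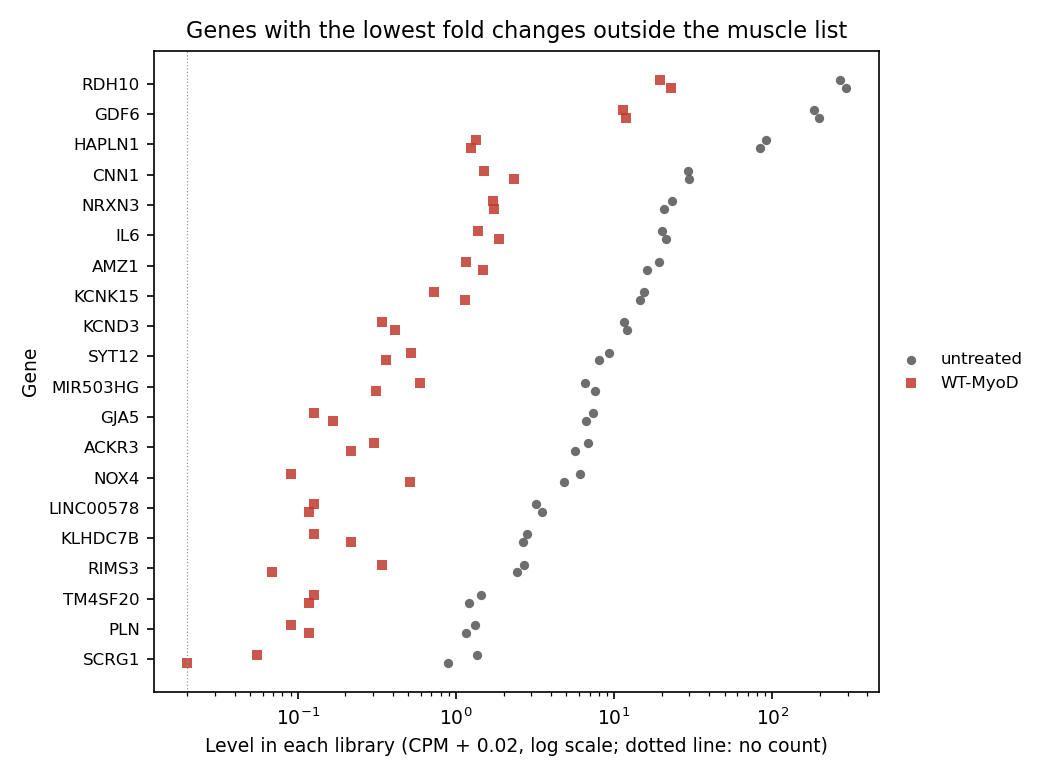
Level in each library (x axis, CPM plus 0.02, log scale) of the 20 genes with the lowest fold changes outside the muscle list, 2 libraries per group. Both untreated libraries lie to the right of both WT-MyoD libraries for each gene, which the rule of choice required. HAPLN1 went from 90.8 and 83.8 CPM to 1.31 and 1.22 CPM.

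In absolute level and outside the muscle list, which was left out of this ranking, the largest gains after the ribosomal RNA genes included cytoskeletal and cell cycle genes. NES, the intermediate filament nestin of stem cells and young muscle, stood at 5.65 and 2.06 CPM untreated and at 1139 and 1432 CPM with WT-MyoD. Its log2 fold change was 8.35 (SE 0.26), and 9.28 without untreated replicate 1, the untreated library with more transgene counts. IGFBP5, a binding protein of insulin-like growth factors, went from 467 and 476 CPM to 1342 and 1510 CPM. CCND1, the cyclin of the G1 phase, went from 689 and 681 CPM to 1328 and 1745 CPM, and the dystroglycan gene DAG1 from 246 and 224 CPM to 940 and 1182 CPM. The largest losses were of matrix and its receptors. Fibronectin (FN1) went from 56132 and 60847 CPM to 24925 and 29406 CPM. ITGA11, a collagen receptor subunit, went from 3390 and 3547 CPM to 1064 and 1226 CPM, and the scavenger and signalling receptor LRP1 from 8383 and 7982 CPM to 3268 and 5010 CPM. CPM are not per length, so they rank reads and not molecules between genes.

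Growth factor genes and their receptors changed in both directions. Of 35 growth factor genes tested, 16 rose (45.7%) and 9 fell (25.7%), against 26.0% and 22.5% over all genes. Of 33 receptors of growth factors, 13 rose and 13 fell, 39.4% each. The list medians of the log2 fold change were 0.31 and 0.14, against 0.00 over all genes. NRG1, the neuregulin that binds ERBB receptors, went from 99.1 and 106 CPM to 15.3 and 16.2 CPM and fell by 2.70 on the log2 scale (SE 0.07). ERBB3, a neuregulin receptor that is on the muscle list, rose from 2.38 and 1.55 CPM to 50.2 and 48.7 CPM (log2 fold change 4.63, SE 0.13). The ligand and the receptor thus moved in opposite directions. VEGFA, the main angiogenic factor, went from 111 and 113 CPM to 32.2 and 32.3 CPM, a fall of 1.80 on the log2 scale (SE 0.06). EGF rose from 0.605 and 0.594 CPM to 8.60 and 8.17 CPM, and the angiopoietin-like gene ANGPTL2 from 194 and 191 CPM to 541 and 584 CPM.

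Among the receptors, KIT, the stem cell factor receptor of blood, germ and pigment cells, stood at 2.79 and 2.70 CPM untreated and at 59.2 and 59.3 CPM with WT-MyoD (log2 fold change 4.43, SE 0.10, adjusted p = 8.0e-15). The melanocyte marker TYR had no count in any of the 4 libraries. NGFR, the low-affinity neurotrophin receptor, rose from 0.242 and 0.183 CPM to 8.46 and 8.61 CPM, and DDR1, a collagen-binding receptor kinase, from 40.5 and 33.7 CPM to 136 and 151 CPM. Among the falls, ROR2, a receptor of non-canonical Wnt signals, went from 19.01 and 15.9 CPM to 3.06 and 3.38 CPM, and PDGFRB, the receptor by which fibroblasts sense PDGF-BB, from 1702 and 1670 CPM to 741 and 825 CPM.

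Feedback inhibitors of the kinase cascade downstream of these receptors were measured as well. Of 26 dual specificity phosphatase and Sprouty genes, 11 rose (42.3%) and 3 fell (11.5%), against 26.0% and 22.5% over all genes. The median log2 fold change was 0.20. DUSP4, a nuclear phosphatase of MAP kinases, stood at 2.18 and 2.29 CPM untreated and at 116 and 116 CPM with WT-MyoD (log2 fold change 5.70, SE 0.09). SPRY1, a Sprouty inhibitor of receptor kinase signalling, rose from 7.95 and 7.59 CPM to 44.9 and 46.9 CPM, and SPRY2 from 15.1 and 13.1 CPM to 59.0 and 54.3 CPM. Immediate early genes, the first transcripts to answer a mitogen, did not move as 1 group, with 13 of 26 higher (50%) and 7 lower (26.9%). FOSL1, an AP-1 subunit, rose from 29.7 and 29.9 CPM to 85.5 and 85.5 CPM and EGR1 from 90.8 and 96.1 CPM to 180 and 220 CPM. EGR2 went the other way, from 49.5 and 47.0 CPM to 5.12 and 6.07 CPM, a fall of 3.12 on the log2 scale (SE 0.09), and FOS from 28.4 and 26.2 CPM to 14.2 and 16.0 CPM.

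G protein-coupled receptors were taken by symbol and included adhesion, peptide, amine, nucleoside, lipid and Frizzled receptors. Of 114 tested, 43 rose (37.7%) and 28 fell (24.6%), against 26.0% and 22.5% over all genes. A rise over 4-fold was called for 22 of the 114, where the share over all genes was 6.52%. Of the 213 receptor genes taken, those near 0 in untreated cells passed the filter mostly through a group in which they were higher. The filter thus bears on this count. ADGRG1, an adhesion receptor that binds collagen, rose from 0.888 and 0.777 CPM to 38.8 and 36.3 CPM (log2 fold change 5.49, SE 0.13). The adenosine receptor ADORA1 rose from 1.21 and 0.823 CPM to 25.6 and 27.1 CPM (log2 fold change 4.67, SE 0.14). EDNRB, an endothelin receptor, rose from 0.0404 and 0.137 CPM to 12.01 and 11.5 CPM (log2 fold change 7.06, SE 0.29; 6.39 without untreated replicate 1 and 8.10 without untreated replicate 2).

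Of 5 alpha receptor genes for adrenaline and noradrenaline tested, a group taken by symbol after the values were seen, 3 rose and none fell. ADRA1B rose from 0.969 and 1.05 CPM to 7.39 and 7.39 CPM (log2 fold change 2.87, SE 0.18) and ADRA2C from 2.95 and 3.57 CPM to 15.0 and 15.7 CPM (log2 fold change 2.24, SE 0.13). ADRA1D rose from 1.05 and 0.457 CPM to 3.94 and 3.43 CPM (log2 fold change 2.27, SE 0.29; 3.01 without untreated replicate 1). ADRA1A and ADRA2A were not called (adjusted p = 0.65 and 0.96). By contrast, FZD8, a Wnt receptor, went from 90.2 and 83.7 CPM to 18.4 and 16.9 CPM and fell by 2.30 on the log2 scale (SE 0.07), and FZD4 from 131 and 139 CPM to 49.2 and 60.2 CPM.

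Potassium channels, which set the resting potential and repolarise excitable cells, changed in both directions. Of 50 tested, 18 rose and 8 fell, shares of 36.0% and 16.0% against 26.0% and 22.5% over all genes. KCNN3, a calcium-activated channel of small conductance, rose from 1.05 and 0.686 CPM to 146 and 170 CPM (log2 fold change 7.49, SE 0.13, adjusted p = 6.8e-16). KCNJ6, an inward rectifier opened by G proteins, rose from 0.605 and 0.732 CPM to 46.4 and 63.9 CPM (log2 fold change 6.36, SE 0.19). KCNH2, the channel known as hERG, went from 0.0404 and 0 CPM to 5.15 and 4.01 CPM, a ratio of 218 over 1 untreated read pair (95% counting interval 38.7 to 8646). KCND3 and KCNK15, described above, were the strongest falls of the list by adjusted p.

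Axon guidance genes, whose products steer growing nerves and also cell migration, gave 27 higher and 15 lower of 62, shares of 43.5% and 24.2% against 26.0% and 22.5% over all genes. SEMA6B, a membrane semaphorin, rose from 0.363 and 0.594 CPM to 33.1 and 37.7 CPM (log2 fold change 6.22, SE 0.15). SEMA3A, a secreted repellent, rose from 40.1 and 42.6 CPM to 196 and 197 CPM (log2 fold change 2.25, SE 0.07). SLIT3, a secreted ligand of ROBO receptors, went from 1423 and 1452 CPM to 262 and 297 CPM, and NRP2, a semaphorin co-receptor, from 415 and 433 CPM to 106 and 123 CPM, falls of 2.36 and 1.89 on the log2 scale (SE 0.08 and 0.07). Of 40 synapse and vesicle release genes, 19 rose (47.5%) and 9 fell (22.5%). The glutamate receptor subunit GRIA1 rose from 18.8 and 20.5 CPM to 63.2 and 69.4 CPM (log2 fold change 1.76, SE 0.08), and NRXN2 from 2.42 and 2.79 CPM to 16.3 and 19.4 CPM, while NRXN3 fell as described.

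Genes of adhesion between cells were called in both directions. Of 75 cadherin genes, 23 rose and 12 fell, shares of 30.7% and 16.0% that together lie near those over all genes. N-cadherin (CDH2), which is on the muscle list, went from 914 and 927 CPM to 297 and 310 CPM. CDH11, the cadherin of mesenchymal cells, went from 1234 and 1307 CPM to 502 and 513 CPM. CDH2 and CDH11 fell by 1.60 and 1.32 on the log2 scale (SE 0.06 and 0.07). CELSR1, a planar polarity cadherin, went from 44.6 and 40.4 CPM to 9.06 and 11.4 CPM. Of 25 epithelial junction genes, 8 rose and 9 fell, and 5 fell without either untreated library. The desmosomal linker DSP went from 848 and 856 CPM to 320 and 384 CPM. JAM3, an adhesion molecule of tight junctions that is on the muscle list, rose from 121 and 114 CPM to 336 and 347 CPM. Of 16 keratin genes, 5 rose and 3 fell, with 3 higher without WT-MyoD replicate 1. The simple epithelial keratins KRT7, KRT8 and KRT18 fell, KRT7 from 66.3 and 63.6 CPM to 5.47 and 5.19 CPM (by 3.60 on the log2 scale, SE 0.09), KRT8 from 4.04 and 3.75 CPM to 1.24 and 2.45 CPM, and KRT18 from 11.9 and 10.6 CPM to 2.10 and 2.50 CPM. KRT19, also of simple epithelia, rose from 12.2 and 11.7 CPM to 21.6 and 16.9 CPM. The adhesion kinase PTK2B went from 47.1 and 46.9 CPM to 11.6 and 11.5 CPM.

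Secreted proteins outside the structural matrix changed in both directions. Of 33 complement and coagulation genes, 14 rose (42.4%) and 12 fell (36.4%), against 26.0% and 22.5% over all genes. F13A1, the transglutaminase subunit that crosslinks fibrin, rose from 0.161 and 0.137 CPM to 72.1 and 65.9 CPM (log2 fold change 8.82, SE 0.15, adjusted p = 5.4e-16). F13A1 is also made by macrophages, whose markers CD14 and CD68 are part of the leukocyte sum above: CD14 had 34 and 28 counts untreated and 84 and 72 counts with WT-MyoD. Their part in the result was not tested. PLAU, the urokinase that activates plasminogen, rose from 30.3 and 29.5 CPM to 214 and 203 CPM (log2 fold change 2.80, SE 0.07). THBD, the endothelial thrombin receptor thrombomodulin, rose from 3.07 and 2.79 CPM to 19.8 and 19.04 CPM, and TFPI, the inhibitor of tissue factor, from 30.5 and 29.3 CPM to 88.2 and 101 CPM. CFD, the complement factor D of adipose cells, went from 5.13 and 6.40 CPM to 0.995 and 1.47 CPM.

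Of 28 genes of ADAM and ADAMTS proteases, 15 rose (53.6%) and 10 fell (35.7%), so 3 were not called. ADAM12, a sheddase of mesenchymal and fusing cells, went from 1236 and 1244 CPM to 307 and 338 CPM and fell by 1.94 on the log2 scale (SE 0.07). ADAM19, its close relative, rose from 31.6 and 27.99 CPM to 131 and 146 CPM (log2 fold change 2.22, SE 0.08). The pair thus moved in opposite directions. Prostaglandin genes gave 11 higher and 1 lower of 18, with 3 lower without WT-MyoD replicate 1. The constitutive cyclooxygenase gene PTGS1 rose from 33.8 and 33.2 CPM to 92.9 and 92.6 CPM (log2 fold change 1.47, SE 0.06), whereas the inducible PTGS2 stood at 4.64 and 4.85 CPM untreated and at 5.83 and 4.89 CPM with WT-MyoD (log2 fold change 0.19, SE 0.13, adjusted p = 0.26). The receptors PTGER2 and PTGER4 rose, PTGER2 from 2.38 and 1.74 CPM to 17.1 and 14.2 CPM and PTGER4 from 3.67 and 3.93 CPM to 14.2 and 14.7 CPM. The member that fell was PTGIS, the prostacyclin synthase, from 124 and 131 CPM to 38.3 and 45.5 CPM.

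Of 22 cytokine and chemokine genes, 6 rose (27.3%) and 9 fell (40.9%), against 26.0% and 22.5% over all genes. IL6, a cytokine of inflammation that muscle also secretes, went from 20.1 and 21.3 CPM to 1.35 and 1.86 CPM and fell by 3.71 on the log2 scale (SE 0.14). IL34, a growth factor of macrophages, rose from 0.646 and 0.869 CPM to 4.58 and 4.45 CPM (log2 fold change 2.59, SE 0.17). Of 35 genes of skin fibroblast secretion and identity, 17 rose (48.6%) and 15 fell (42.9%). PI16, a marker of adventitial fibroblasts, went from 625 and 583 CPM to 56.1 and 63.9 CPM and fell by 3.33 on the log2 scale (SE 0.08). PRELP, a leucine-rich matrix proteoglycan, rose from 37.3 and 38.6 CPM to 169 and 187 CPM, and the plasminogen-binding CLEC3B from 5.81 and 5.44 CPM to 42.1 and 40.8 CPM (log2 fold changes 2.23 and 2.88, SE 0.07 and 0.09). Members of the list thus moved both ways among abundant and rare transcripts.

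**Figure D4:**
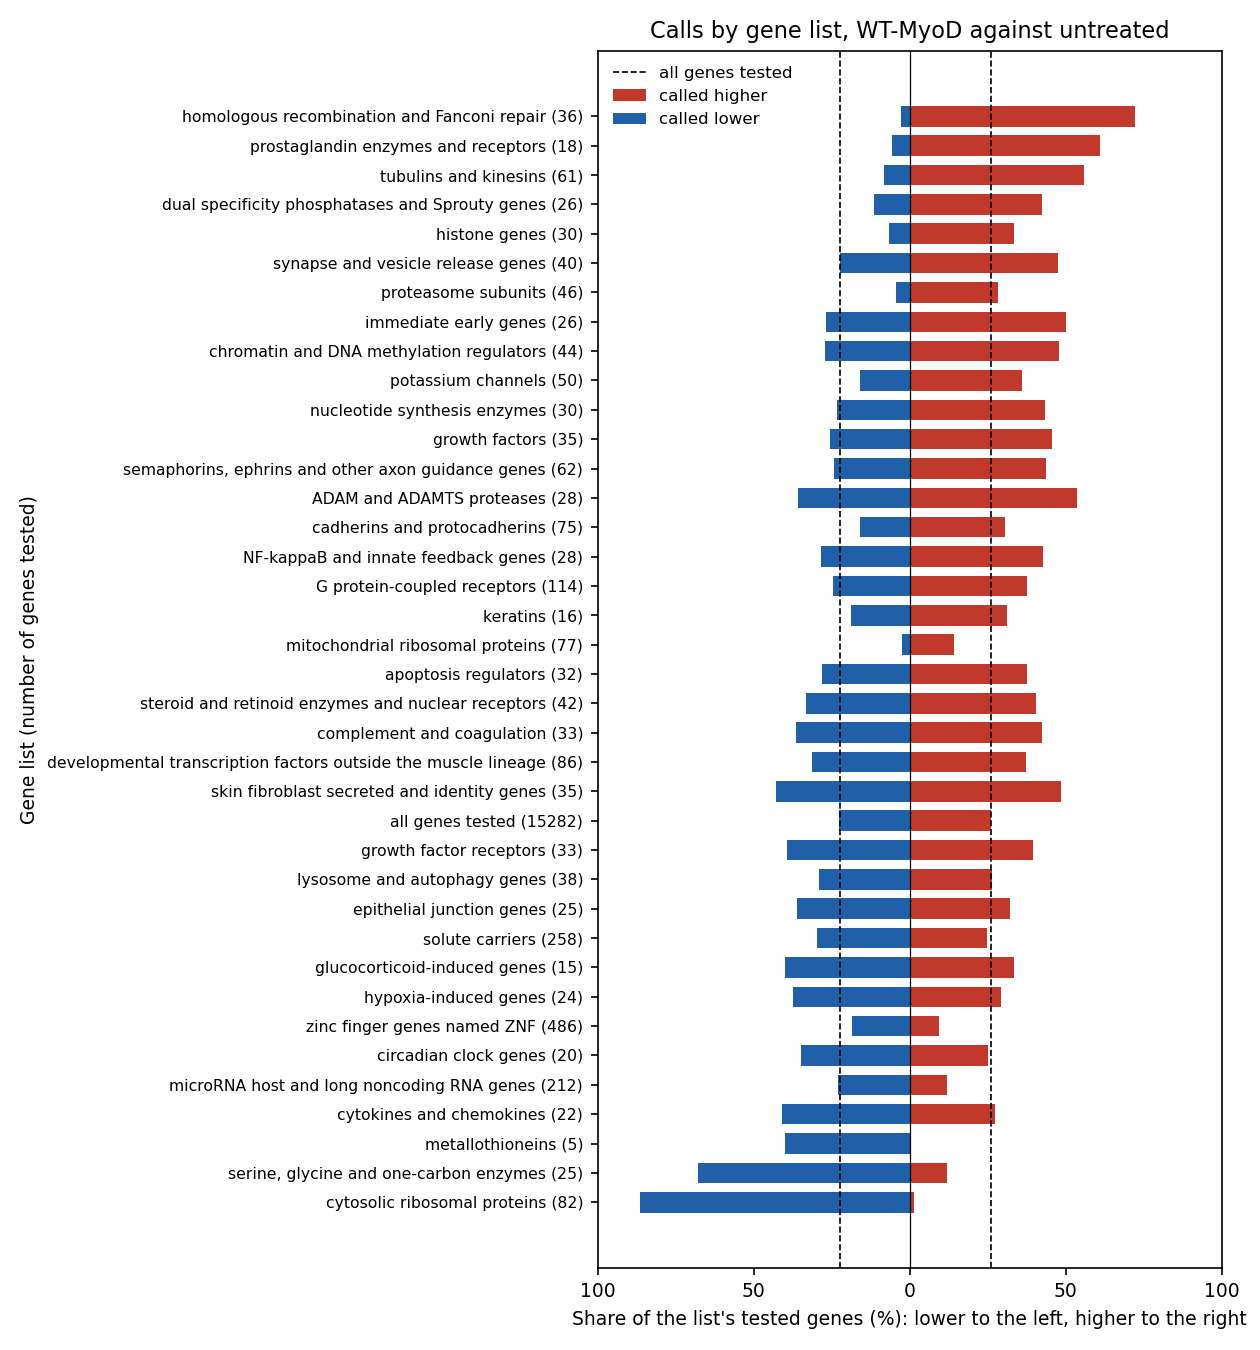
Share, in percent, of the tested genes of each list that were called lower (blue, to the left) or higher (red, to the right) with WT-MyoD, with the number tested in brackets; dashed lines mark 22.5% lower and 26.0% higher over all genes. Repair genes (26 higher, 1 lower of 36) and cytosolic ribosomal protein genes (1 higher, 71 lower of 82) lie at the ends.

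Of 86 developmental transcription factors outside the muscle lineage, 32 rose and 27 fell, shares of 37.2% and 31.4% against 26.0% and 22.5% over all genes. SOX8, a SOX factor of neural crest and of satellite cells, rose from 0.0807 and 0.183 CPM to 43.6 and 41.2 CPM (log2 fold change 8.34, SE 0.18; 8.99 without untreated replicate 2). ATOH8, a basic helix-loop-helix factor, rose from 9.61 and 9.42 CPM to 65.7 and 69.4 CPM (log2 fold change 2.83, SE 0.08). KLF5, a Krüppel-like factor of epithelium and smooth muscle, rose from 23.4 and 25.8 CPM to 117 and 121 CPM (log2 fold change 2.28, SE 0.07). SIM1 rose from 20.8 and 20.6 CPM to 74.0 and 81.7 CPM. TP63, the p53 relative of basal keratinocytes, stood at 0.161 and 0.457 CPM untreated and at 3.45 and 3.28 CPM with WT-MyoD (log2 fold change 3.47, SE 0.28; 2.87 without untreated replicate 1 and 4.36 without untreated replicate 2). Of the basal keratins, KRT5 had no count in any of the 4 libraries, KRT14 rose from 0.0807 and 0 CPM to 0.249 and 0.294 CPM, and KRT17 rose from 0 and 0.0915 CPM to 0.320 and 0.196 CPM (adjusted p = 0.031 and 0.026). These calls rest on few read pairs. That of KRT14 was lost without untreated replicate 2 or either WT-MyoD library (adjusted p = 0.22, 0.062 and 0.077) and that of KRT17 without replicate 1 of either group (adjusted p = 0.22 untreated and 0.14 with WT-MyoD). Falls were seen for SOX9, the factor of cartilage, from 19.2 and 20.5 CPM to 4.83 and 5.43 CPM, for GATA6 from 43.6 and 43.9 CPM to 11.8 and 13.4 CPM and for FOXC1 from 30.5 and 35.5 CPM to 11.05 and 9.79 CPM. They fell by 1.96, 1.80 and 1.66 on the log2 scale (SE 0.10 each).

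Clock genes gave 5 higher (25%) and 7 lower (35%) of 20, against 26.0% and 22.5% over all genes, with 8 higher without WT-MyoD replicate 1. Over 4-fold, 2 were called higher and 0 lower. The clock genes named next are from the lower calls. BHLHE40, a repressor that answers light, hypoxia and growth signals, went from 175 and 174 CPM to 62.6 and 61.4 CPM and fell by 1.49 on the log2 scale (SE 0.06). The repressor CRY2 went from 59.2 and 57.9 CPM to 33.3 and 34.0 CPM. Harvest times of day are not given in the labels. Of 486 zinc finger genes named ZNF, 46 rose and 90 fell, shares of 9.47% and 18.5% that are both below those over all genes. Without untreated replicate 1 the higher calls were 27, and without untreated replicate 2 they were 30. ZNF367, a cell cycle gene, was an exception and rose from 3.43 and 3.02 CPM to 24.2 and 24.8 CPM.

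Genes of steroid and retinoid action split, 17 higher and 14 lower of 42, with 9 lower without untreated replicate 1. Steroid sulfatase (STS) rose from 92.8 and 101 CPM to 239 and 253 CPM (log2 fold change 1.34, SE 0.07). In the retinoid path, RDH10 fell as described, whereas ALDH1A1, which makes retinoic acid, rose from 3.47 and 3.57 CPM to 15.5 and 12.9 CPM, and CYP26B1, which degrades it, from 4.00 and 3.38 CPM to 12.3 and 15.0 CPM. Genes known to be induced by glucocorticoids gave 5 higher and 6 lower of 15, with 3 higher without untreated replicate 1 or without WT-MyoD replicate 1. The kinase gene SGK1 went from 240 and 241 CPM to 39.6 and 35.6 CPM and fell by 2.67 on the log2 scale (SE 0.07), while glutamine synthetase (GLUL) rose from 120 and 117 CPM to 378 and 380 CPM.

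Genes of homologous recombination and Fanconi repair, which mend breaks and crosslinks mainly in dividing cells, gave 26 higher and 1 lower of 36 (0 lower without untreated replicate 1), with a median log2 fold change of 0.93. CLSPN, a mediator of the replication checkpoint, rose from 3.07 and 2.61 CPM to 23.2 and 28.7 CPM, and POLQ, the polymerase of end joining at microhomology, from 1.78 and 1.69 CPM to 10.98 and 13.1 CPM (log2 fold changes 3.18 and 2.79, SE 0.14 and 0.15). BRCA1 rose from 16.4 and 16.1 CPM to 36.3 and 35.3 CPM. Nucleotide synthesis genes gave 13 higher (43.3%) and 7 lower (23.3%) of 30. The ribonucleotide reductase subunit RRM2 rose from 6.58 and 6.63 CPM to 44.1 and 48.0 CPM (log2 fold change 2.80, SE 0.09) and thymidylate synthase (TYMS) from 11.4 and 11.02 CPM to 48.4 and 41.6 CPM. Tubulins and kinesins gave 34 higher and 5 lower of 61, with a median of 0.73. The mitotic kinesin KIF20A rose from 9.61 and 9.97 CPM to 55.7 and 49.8 CPM, while KIF26B went from 65.8 and 64.7 CPM to 12.1 and 16.1 CPM. Many of these genes are expressed with the cell cycle.

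Chromatin regulators gave 21 higher (47.7%) and 12 lower (27.3%) of 44, against 26.0% and 22.5% over all genes. UHRF1, which recruits maintenance DNA methylation, rose from 9.57 and 8.64 CPM to 38.3 and 46.7 CPM, and the histone chaperone ASF1B from 2.42 and 2.51 CPM to 18.4 and 15.8 CPM (log2 fold changes 2.22 and 2.80, SE 0.10 and 0.13). TET1, which oxidises methylcytosine, rose from 7.39 and 8.83 CPM to 16.2 and 23.7 CPM. SMARCD3, the BAF60c subunit of SWI/SNF complexes known to work with MyoD, rose from 17.96 and 17.3 CPM to 41.7 and 38.5 CPM (log2 fold change 1.19, SE 0.08). Of 30 histone genes, taken by symbol and including linker histones and pseudogenes, 10 rose and 2 fell (1 without untreated replicate 1). Most histone transcripts lack a poly(A) tail, and the libraries were made from polyadenylated RNA.

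Metabolic genes included those of serine, glycine and 1-carbon units, which feed nucleotide and glutathione synthesis. Of 25 tested, 17 were lower and 3 higher, and the median log2 fold change was -0.71. PSAT1, of serine synthesis, went from 436 and 437 CPM to 139 and 121 CPM, and MTHFD2, a mitochondrial folate enzyme, from 192 and 193 CPM to 63.9 and 59.0 CPM. Asparagine synthetase (ASNS) went from 147 and 138 CPM to 42.2 and 35.7 CPM, and the glutamine transporter SLC1A5 from 676 and 660 CPM to 237 and 239 CPM. They fell by 1.75, 1.65, 1.86 and 1.49 on the log2 scale (SE 0.07, 0.06, 0.08 and 0.06). Nucleotide synthesis, described above, had more genes higher than lower in the same cells. Hypoxia-induced genes gave 7 higher (29.2%) and 9 lower (37.5%) of 24. CA12, a membrane carbonic anhydrase, rose from 12.4 and 12.3 CPM to 43.7 and 38.6 CPM, opposite to VEGFA in the same list.

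Of 258 solute carriers, 64 rose (24.8%) and 77 fell (29.8%), near the 26.0% and 22.5% over all genes. SLC7A7, a subunit of cationic amino acid exchange, rose from 5.29 and 5.35 CPM to 34.0 and 33.5 CPM (log2 fold change 2.67, SE 0.08). SLC40A1, the iron exporter ferroportin, rose from 8.03 and 7.13 CPM to 36.0 and 32.1 CPM (log2 fold change 2.17, SE 0.11). SLC39A8, which imports zinc and manganese, went from 16.0 and 17.8 CPM to 3.87 and 3.43 CPM and fell by 2.20 on the log2 scale (SE 0.15). Of the 5 metallothionein genes tested, 2 fell and none rose. MT2A went from 36.3 and 32.3 CPM to 19.4 and 19.97 CPM and MT1E from 7.18 and 7.27 CPM to 3.20 and 2.64 CPM. Lysosome and autophagy genes gave 10 higher and 11 lower of 38, shares of 26.3% and 28.9%, and 6 were lower without untreated replicate 1.

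Of 28 genes of NF-kappaB and innate feedback, 12 rose (42.9%) and 8 fell (28.6%), against 26.0% and 22.5% over all genes. CD274, the checkpoint ligand PD-L1, rose from 1.61 and 2.06 CPM to 19.3 and 21.0 CPM (log2 fold change 3.46, SE 0.14). Apoptosis regulators gave 12 higher (37.5%) and 9 lower (28.1%) of 32. The pro-apoptotic BMF rose from 3.87 and 4.02 CPM to 27.7 and 30.1 CPM and BCL2L11, which encodes BIM, from 8.44 and 7.54 CPM to 37.1 and 39.5 CPM (log2 fold changes 2.87 and 2.26, SE 0.10 and 0.09). The protective BCL2L1 rose as well, from 74.0 and 72.4 CPM to 133 and 144 CPM (log2 fold change 0.92, SE 0.06).

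Cytosolic ribosomal proteins, the protein part of the translating ribosome, had the highest share of lower calls among the lists in the plot of calls by gene list. Of 82 tested, 71 fell, 1 rose and 10 were not called. The median log2 fold change was -0.38, with medians between -0.41 and -0.32 over the alternative settings. RPS27 went from 47.7 and 45.1 CPM to 30.6 and 29.3 CPM and fell by 0.63 on the log2 scale (SE 0.07), RPLP1 from 182 and 170 CPM to 124 and 123 CPM (by 0.51, SE 0.06) and RPS12 from 114 and 113 CPM to 83.7 and 78.6 CPM (by 0.49, SE 0.06). The member that rose was RPL22L1, a paralog of RPL22, from 5.69 and 4.80 CPM to 7.82 and 6.90 CPM (log2 fold change 0.49, SE 0.13), a call that was lost without untreated replicate 2 (log2 fold change 0.37, adjusted p = 0.071). Many ribosomal protein genes have processed pseudogenes with which reads can be shared. The 77 mitochondrial ribosomal protein genes did not follow, with 11 higher (14.3%) and 2 lower (2.60%). Both shares were below the 26.0% and 22.5% over all genes. The lower calls were 8 without WT-MyoD replicate 1 and 1 without WT-MyoD replicate 2, without untreated replicate 1 or without either VP64-MyoD library. Without WT-MyoD replicate 2 the higher calls were 27, and without untreated replicate 2 they were 7. Proteasome subunits gave 13 higher (28.3%, near the 26.0% over all genes) and 2 lower (4.35%) of 46. There were 25 higher without WT-MyoD replicate 2 and 8 without either untreated library, and 1 lower without untreated replicate 1 or without WT-MyoD replicate 2.

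Host genes of small nucleolar RNAs, many of which share a pyrimidine tract at the transcript start with ribosomal protein genes, are part of the list of noncoding genes. Of 19 tested, a group taken by symbol after the values were seen, 9 fell and 1, SNHG33, rose. GAS5 went from 43.1 and 40.1 CPM to 14.9 and 14.3 CPM and fell by 1.51 on the log2 scale (SE 0.08), SNHG5 from 36.7 and 32.4 CPM to 20.04 and 18.7 CPM (by 0.84, SE 0.08), and SNHG29 from 152 and 145 CPM to 92.9 and 90.9 CPM (by 0.69, SE 0.06). SNHG8 fell from 8.64 and 7.54 CPM to 3.98 and 4.65 CPM (by 0.92, SE 0.14). EEF1A1 and EEF2, translation elongation factors named after their values were seen, fell by 0.31 and 0.45 (SE 0.07 and 0.08). Their transcripts are known to carry such a tract too. No tract was scored here, and the part of such tracts in these falls was not tested.

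Over the 212 noncoding and microRNA host genes tested, 25 rose (11.8%) and 49 fell (23.1%). The share that fell was near the 22.5% over all genes, and the share that rose was below the 26.0%. The imprinted H19, a long noncoding RNA of fetal tissue, rose from 2.70 and 2.88 CPM to 221 and 264 CPM (log2 fold change 6.44, SE 0.12, adjusted p = 1.0e-15). MIR503HG, a microRNA host, went from 6.50 and 7.54 CPM to 0.568 and 0.294 CPM. It fell by 3.95 on the log2 scale (SE 0.23), with a log2 fold change of -4.57 without WT-MyoD replicate 1. DNM3OS, another microRNA host, went from 29.3 and 33.5 CPM to 10.5 and 12.1 CPM and fell by 1.48 on the log2 scale (SE 0.10). These are host transcripts, and the mature microRNAs were not measured.

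Not every one of these changes was shared by the fusion form. WT-MyoD and VP64-MyoD libraries were compared directly, which called 4391 genes higher with VP64-MyoD, 28.7%, and 4345 lower, 28.4%. The transgene itself was higher in the WT-MyoD libraries, at 762 and 1021 CPM against 116 and 97.2 CPM. The forms thus also differ in transgene RNA level, and MyoD protein is not part of these data. KIT stood at 1.90 and 2.19 CPM with VP64-MyoD, lower than with WT-MyoD by a log2 difference of -4.85 (SE 0.10, adjusted p = 1.8e-14). CLEC3B was at 0.823 and 0.846 CPM, a log2 difference of -5.63 (SE 0.12), GRIA1 at 3.98 and 3.69 CPM (-4.11, SE 0.10), and ATOH8 at 3.81 and 4.15 CPM (-4.08, SE 0.09). SEMA3A was at 19.8 and 21.0 CPM (-3.27, SE 0.07). For each of these 5 genes the WT-MyoD libraries were above all others. The receptors ADRA1B, ADRA2C and ADRA1D each stood lower with the fusion, by log2 differences of -3.07, -2.59 and -1.80 (SE 0.18, 0.13 and 0.27). EDNRB was at 1.08 and 0.730 CPM (-3.71, SE 0.20), SLC47A2, a proton-coupled exporter of organic cations, at 0.736 and 1.04 CPM against 12.3 and 12.1 CPM with WT-MyoD (-3.77, SE 0.17), and the adiponectin relative C1QTNF3 at 1.60 and 1.96 CPM against 31.4 and 31.1 CPM (-4.12, SE 0.12). EDNRB and SLC47A2 also rose with VP64-MyoD against untreated cells, to a lesser extent (log2 fold changes 3.35 and 4.30, both called).

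Some falls were likewise found with the native factor and not with the fusion. VEGFA stood at 115 and 114 CPM with VP64-MyoD, higher than with WT-MyoD by a log2 difference of 1.83 (SE 0.06). EGR2 stood at 42.8 and 44.5 CPM (2.97, SE 0.09), BHLHE40 at 291 and 295 CPM (2.24, SE 0.06) and ASNS at 135 and 141 CPM (1.82, SE 0.08). NOX4 stood at 4.72 and 4.92 CPM (4.26, SE 0.36, with 3.29 and 6.02 when WT-MyoD replicate 1 or 2 was left out). For VEGFA, ASNS and EGR2 the level with VP64-MyoD lay close to that of untreated cells. Among the genes at 0 in untreated cells, COBL and TAGLN3 stood at similar levels with both forms. COBL was at 6.75 and 5.19 CPM with VP64-MyoD (log2 difference 0.02, 95% interval -0.32 to 0.36) and TAGLN3 at 1.60 and 1.85 CPM (log2 difference -0.07, 95% interval -0.65 to 0.50).

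**Figure D5:**
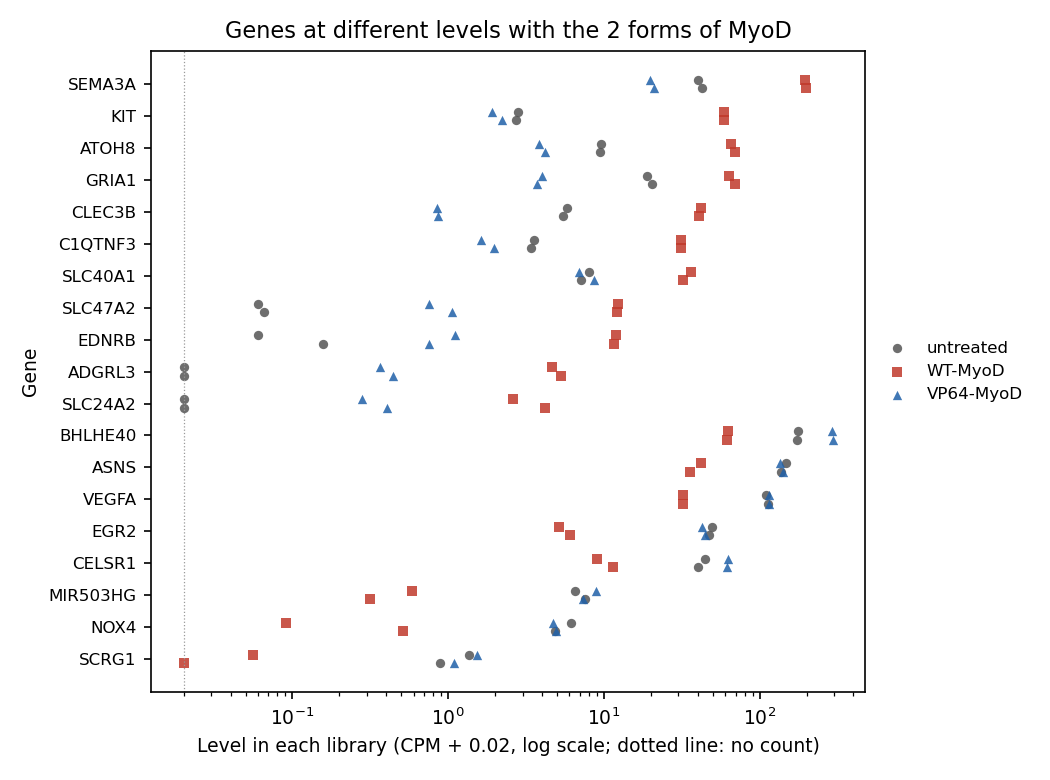
Level in each library (x axis, CPM plus 0.02, log scale) of 19 genes chosen for their difference between WT-MyoD and VP64-MyoD, 2 libraries per group. The first 11 genes lie highest with WT-MyoD (squares), among them KIT at 59.2 and 59.3 CPM; the last 8 lie lowest with WT-MyoD.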

How the data were processed

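Polyadenylated RNA of 6 fibroblast cultures was sequenced from unstranded tagmentation libraries, per the labels' protocols. The submitters' processing notes name the hg19 build, Bowtie 0.12.9, CASAVA and DESeq 1.10.1. The authors deposited raw read counts, 1 row per RefSeq transcript and without normalization, and every count is even, so a read pair counts as 2. Of 40710 rows, 39324 were matched to symbols by accession through a RefSeq gene table and 517 through GENCODE, and rows were summed per gene. The 868 rows without a symbol held 0.601% to 0.744% of the counts. Library totals were 53804224 and 48142658 counts (untreated) and 52860140 and 40997586 counts (WT-MyoD). Chi-square divided by its degrees of freedom was 3.49 between the untreated replicates and 13.8 between those with WT-MyoD, both above the 1 of sampling noise.

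The 6 libraries entered 1 fit in edgeR 4.0.16 (R 4.3.3) with TMM scaling, filterByExpr (minimum total 15, minimum count 10) and a two-sided quasi-likelihood test, with 3 residual degrees of freedom. Each standard error was the size of the log2 fold change divided by the root of F. The fit was tested on simulated counts. CPM are not per length. Counting intervals are exact (Clopper-Pearson on the split of read pairs) and, like the floors, cover counting error only. Reads of near-identical gene copies may be shared.

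Named genes were taken by rule: the 20 highest and 20 lowest fold changes outside the muscle list with a mean count of at least 50 and no overlap, the 10 largest gains and losses in CPM, the 6 most abundant genes with no count in the other group, and up to 4 per list by adjusted p. Other members are named after their values were seen. The comparison, members and lists were chosen with earlier results of these data known. Alternatives were DESeq2 1.42.0, limma-voom (limma 3.58.1), other scalings and filters, transcript rows, a fit of 2 groups, a replicate block, leaving out each library, and halved counts, which were added after seeing the data. The authors' deposited table of comparisons was not used here, and some genes and 1 list are not reported here.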

Additional observations from a re-analysis of the deposited data

How the results depend on the processing

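The counts over all genes stayed within 1.5 times the values given under 15 of the 16 alternatives, and with all libraries kept 52.44% to 54.55% of the calls were higher. Keeping rows per transcript gave 6783 higher and 5651 lower, with 1718 and 310 over 4-fold, against 3968, 3446, 996 and 157 per gene; that setting tests more features. Leaving out 1 library at a time gave 3259 to 4245 higher, 2591 to 3492 lower, and 945 to 1011 and 149 to 178 over 4-fold. A replicate block gave 3947 higher, 3441 lower, and 976 and 160 over 4-fold. Same-numbered libraries deviated with correlations of 0.028, 0.020 and 0.0045 over genes, so the numbers were not taken as a pairing. Of 174 genes named and tested for WT-MyoD, all but 2 kept their direction. The exceptions were not called, ADRA1A (-0.83 to 0.14 with 1 library left out) and ADRA2A (-0.0726 to 0.0715). Calls were lost under 1 setting each for UCN2, STEAP1B-AS1 and RPL22L1, and under 2 or more for KDR, KRT14 and KRT17; without the filter KDR and KRT14 had adjusted p of 0.053 and 0.082, and KRT14 had 0.098 in DESeq2. With 1 library left out, the log2 difference between the forms ranged from -0.18 to 0.20 for COBL, below 0 without VP64-MyoD replicate 1 or WT-MyoD replicate 1. For TAGLN3 it ranged from -0.29 to 0.13, above 0 without VP64-MyoD replicate 1 or WT-MyoD replicate 2. Of 92 counts of list members, 18 moved by over 1.5 times under some setting. The cause of these moves was not tested. Precision is limited by 2 libraries per group and, for genes silent in untreated cells, by the few read pairs counted there.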

Other observations

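The balance of higher and lower calls differed between kinds of transcript. Of 13998 protein-coding genes, 3820 rose and 3232 fell with WT-MyoD. Of 808 long noncoding genes, 98 rose and 142 fell, and of 446 pseudogenes, 45 rose and 71 fell. For both of these kinds, the shares called in each direction were below the 26.0% higher and 22.5% lower over all genes. Pseudogenes share reads with their parent genes. The medians of the log2 fold change were 0.01, -0.08 and -0.11. No test of the difference between these kinds was made.

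A few genes outside the groups above are given as values, chosen after they were seen. KIF1A, a motor of synaptic vesicle precursors, stood at 0 and 0.0457 CPM untreated and at 1.85 and 2.06 CPM with WT-MyoD. HLF, a clock output factor, stood at 0 and 0.0457 CPM untreated, at 0.711 and 0.636 CPM with WT-MyoD and at 0.0433 and 0.192 CPM with VP64-MyoD. The noncoding LINC00473, known to be induced by cyclic AMP, had no count in untreated or VP64-MyoD libraries and with WT-MyoD stood at 0.249 and 0.538 CPM, higher than in untreated cells by at least 6.12-fold.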
